A study of Mus musculus and Callithrix jacchus with 22 samples.

Results

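Vip interneurons of marmoset cortex were taken as all cells that the authors' annotation named Inh_Vip in the marmoset single-cell ATAC-seq data. They were 1024 of 6926 marmoset neurons, of 15919 marmoset cells and of 35064 cells in the whole series, and 114 of them came from adults and 910 from newborns. No mouse cell carried the name Inh_Vip (0 of 19145). The study asked how gene regulation changes as cortical neurons mature, and whether mouse and marmoset share these changes. Single-cell ATAC-seq reads come from open chromatin, which the transposase Tn5 cuts and tags, and a barcode assigns each read to a cell.

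The adult group held 2 libraries labelled Y7 and 3 labelled Y8, and the newborn group held 5 libraries labelled Day0. All marmosets were wild type and none was treated. The tissue label reads somatosensory cortex, whereas the protocol names motor cortex as well. Papain was used to free the cells, live ones were sorted by dyes, and a droplet kit then made the libraries, so a share here refers to the cells that came through these steps. A text on sorting tdTomato-labelled projection neurons also stands in the labels, although the study calls the single-cell tissue unfractionated. The sources used here do not give the number of animals behind each library, and each p-value therefore measures the spread between libraries, which may be technical.

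Vip interneurons are inhibitory cells named for vasoactive intestinal peptide. They arise in the caudal ganglionic eminence, and in mouse they keep the transcription factor Prox1 after birth. Many of them contact other inhibitory neurons, in particular somatostatin (Sst) cells, and can thereby release pyramidal neurons from inhibition. The deposited tables gave 2 counts per cell, its reads and its peaks with a read, and no value at the Vip or PROX1 gene. The annotated name could therefore not be checked against its markers, and it is used as the authors gave it.

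The marmoset libraries held 1209 to 1814 cells, 73 to 1352 neurons and 5139726 to 13441944 reads in all. Cells carried between 1000 and 14997 reads, so upper and lower limits bounded every median given here. Among 15771 distinct barcodes 147 occurred in more than 1 library, with 1 to 9 in any of the 45 pairs of libraries. A barcode of this kind was carried by 15 Vip cells, and 0 shared barcodes had the same reads and peaks in both libraries. Newborn libraries 1 and 2 stood apart from libraries 3 to 5 in the makeup of their pyramidal neurons and in interneurons named for neuropeptide Y. The latter numbered 100 and 85 in libraries 1 and 2, and 46, 40 and 59 in libraries 3 to 5. Y7 stood apart from Y8 libraries in number of neurons. The main values are therefore also given for these sets.

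The share of neurons named Vip overlapped between adult and newborn libraries, and the difference did not pass the test. In adults, Vip cells were 37 of 378 and 37 of 261 neurons in the Y7 libraries, and 13 of 104, 13 of 73 and 14 of 85 in the Y8 libraries. These counts gave 9.79%, 14.2%, 12.5%, 17.8% and 16.5%. In newborns they were 173 of 1108, 168 of 1127, 216 of 1352, 186 of 1273 and 167 of 1165 neurons, or 15.6%, 14.9%, 16.0%, 14.6% and 14.3%. The adult range enclosed the newborn one. The means were 14.1% ± 3.18 in adults and 15.1% ± 0.688 in newborns (SD, n = 5 libraries each). The difference was -0.94 percentage points (adjusted p = 0.563, two-sided exact permutation test, 4 share tests). The shares in Y7 libraries alone averaged 12.0% and those in Y8 libraries 15.6%, with the difference from newborns at 0.50 points in Y8 alone.

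Newborn libraries gave nearly the same Vip share each time. The SD of 0.688 points lay below the 1.03 points that counting cells alone would give, and the adult SD of 3.18 points was close to its counting value of 3.03. The Wilson 95% interval ran from 10.7% to 28.1% in Y8 library 2, with the fewest neurons, and from 14.12% to 18.03% in newborn library 3, with the most. Vip cells had the lowest coefficient of variation among the 9 neuron names of newborns, at 4.56%. Subcerebral projection neurons followed at 5.99% and Sst cells at 6.75%, whereas layer IV neurons, the cells of the main thalamic input layer, reached 87.3%. Among the 5 adult names Vip cells were also the least variable, at 22.5%. By number of cells they ranked 3 of 9 in newborns and 4 of 5 in adults. These spreads are descriptions and were not tested.

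The list of neuron names differed between ages, and the result changed with the names counted. Only 5 neuron names were used at both ages: Vip and Sst interneurons, corticothalamic neurons, layer IV neurons and a general excitatory name. Among cells of these names, Vip cells were 14.1% ± 3.18 in adults and 31.3% ± 1.84 in newborns (SD, n = 5 each). This difference of -17.2 points passed (adjusted p = 0.0106, exact permutation test). Adults had 5 neuron names and newborns 9, and age and naming cannot be told apart in these shares. This denominator was chosen after the data were seen.

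The ratio of Vip cells to Sst cells, a main target of Vip interneurons, was lower in adults. For the Vip share of all interneurons the difference did not pass the test. Sst was the only other interneuron name in adults, whereas newborns also had parvalbumin and neuropeptide Y cells. Sst cells were 35.5% ± 9.57 of adult and 11.2% ± 0.758 of newborn neurons (SD, n = 5 each), whereas the Vip share of neurons did not pass the test. A lower ratio to Sst cells is therefore not a lower share of neurons, and the part of the Sst share was not tested. Adult Vip cells were 30.3% and 29.6% of Vip and Sst cells together in Y7 libraries, and 21.3%, 36.1% and 27.5% in Y8 libraries. Newborn libraries had 59.0%, 54.4%, 59.7%, 57.8% and 55.9%. No adult library reached the lowest newborn one. The means were 29.0% ± 5.34 in adults and 57.3% ± 2.21 in newborns (SD, n = 5 each), a difference of -28.4 points (adjusted p = 0.0106, two-sided exact permutation test; the unadjusted p of 0.00794 is the smallest that 5 against 5 libraries allow). Counted per 100 Sst cells, there were 41.4 ± 10.6 Vip cells in adults and 135 ± 12.0 in newborns. The adult libraries ranged from 27.1 to 56.5 and the newborn libraries from 119 to 148. With all interneuron names counted, Vip cells were 29.0% ± 5.34 of interneurons in adults (21.3% to 36.1%) and 33.2% ± 2.35 in newborns (31.2% to 37.2%). These ranges overlapped, and the difference of -4.28 points missed the threshold (adjusted p = 0.19, two-sided exact permutation test, n = 5 each). This denominator was chosen after the data were seen.

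Newborn Vip cells formed 2 clusters, and 1 of them held newborn cells only. With the newborn-only cluster left out, Vip cells were 29.0% ± 5.34 of Vip and Sst cells in adults and 38.0% ± 3.53 in newborns. The difference was then -9.07 points (p = 0.0159, exact permutation test, n = 5 each), and the groups overlapped: Y8 library 2 stood at 36.1% and newborn library 2 at 31.9%. This alternative was also chosen after the data were seen. Sst cells of the 2 ages lay in separate clusters, so the comparison rests on the authors' names for them.

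Among all cells, Vip cells made up 1.58% ± 1.03 in adult and 10.8% ± 0.657 in newborn libraries (SD, n = 5 each). Y7 libraries had 2.27% and 3.06%, the Y8 libraries 0.828%, 0.791% and 0.957%, and newborn libraries 10.2% to 11.9%. The difference of -9.22 points passed (adjusted p = 0.0106, exact permutation test). Neurons as a whole were 901 of 7512 adult and 6025 of 8407 newborn cells. By definition, the Vip share of all cells is this neuron share times the Vip share of neurons. With libraries pooled, the latter was 12.7% in adults and 15.1% in newborns, and its difference between libraries did not pass the test. The neuron share itself was not tested.

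**Figure D1:**
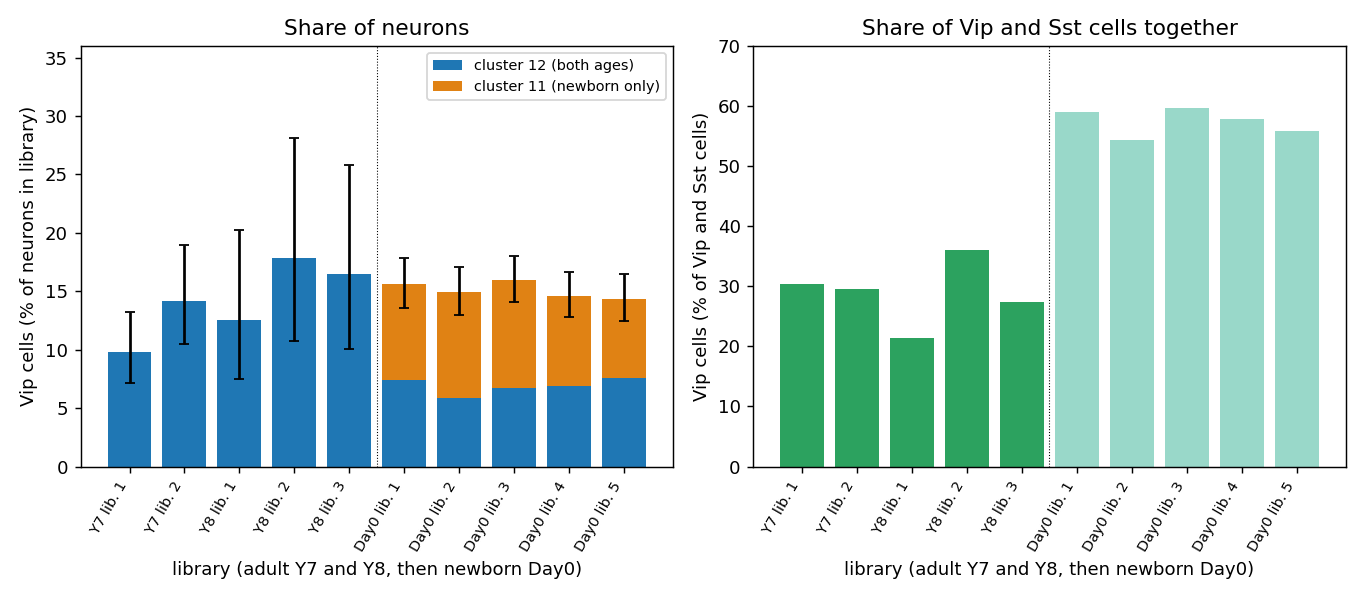
Vip cells in each library, adults (Y7, Y8) left of newborns (Day0), in the left panel as percent of neurons (y axis), stacked by cluster, with Wilson 95% intervals for the whole bar, and in the right panel as percent of Vip and Sst cells together. Total bars overlap between ages on the left, where adults hold cluster 12 only, and do not overlap on the right (21.3% to 36.1% in adults, 54.4% to 59.7% in newborns).

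The Vip name covered 2 of the authors' clusters. Cluster 11 held 495 cells, all newborn, and cluster 12 held 529 cells, 114 adult and 415 newborn. In the study's processing each cluster was divided by time point and small divisions were removed, and the smallest marmoset division kept here had 110 cells. An absence of adult cells from cluster 11 and the removal of a few of them cannot be told apart, and no upper limit is therefore given for the 0 adult cells there.

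Cluster 11 was present in all 5 newborn libraries and held a little more of their Vip cells than cluster 12. It had 91 of 173 Vip cells in newborn library 1, 102 of 168 in library 2, 125 of 216 in library 3, 98 of 186 in library 4 and 79 of 167 in library 5. The shares were 52.6%, 60.7%, 57.9%, 52.7% and 47.3%, with a mean of 54.2% ± 5.20 (SD, n = 5), against 3.71 points expected from counting alone. Only library 5 had more cells in cluster 12. Libraries 1 and 2 together had 56.6% and libraries 3 to 5 together 53.1%, so both clusters were present in each set. The Wilson 95% intervals of 51.3% to 61.8% and 49.0% to 57.1% are for pooled cells and leave out the spread between libraries. Whether these sets differed in this share was not tested.

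Cluster 12 alone was 14.1% ± 3.18 of adult neurons and 6.89% ± 0.670 of newborn neurons (SD, n = 5 each). The newborn libraries had 7.40%, 5.86%, 6.73%, 6.91% and 7.55%, all below the lowest adult library at 9.79%. The difference of 7.26 points passed (adjusted p = 0.0106, exact permutation test). It did not pass among the 5 neuron names used at both ages, where cluster 12 was 14.1% ± 3.18 in adults and 14.4% ± 2.29 in newborns (-0.25 points, adjusted p = 0.897, exact permutation test, n = 5 each). The sign of the difference thus changed with the names counted beside Vip cells.

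Cells of the newborn-only cluster carried fewer reads than newborn cells of the shared cluster in every library. Median reads per cell in cluster 11 were 5797, 6557.5, 6811, 7133 and 6699 in newborn libraries 1 to 5. Those in newborn cells of cluster 12 were 7944, 7890.5, 8814, 8726.5 and 8306. The highest median of cluster 11 lay below the lowest of cluster 12, and the ratio was 0.791-fold (-0.34 ± 0.075 on the log2 scale, SD, n = 5). Median peaks were 2859, 3214.5, 3530, 3683 and 3471 in cluster 11, against 3826, 3818, 4534, 4577.5 and 4540.5 in cluster 12, or 0.787-fold. Peaks followed reads closely: log2 reads and log2 peaks of Vip cells correlated at r of 0.998 to 1.00 within libraries (13 to 216 cells that share a library, a description). At equal reads, cluster 11 had 0.990-fold the peaks of cluster 12. The clusters were built from these same peaks, so the values describe them and no test is drawn from them.

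The share of cluster 11 among newborn Vip cells was lower on average where reads were more numerous. From the lowest to the highest quartile of Vip reads within a library it was 62.5% ± 9.41, 59.4% ± 8.02, 52.5% ± 16.5 and 42.5% ± 2.98 (SD, n = 5 libraries). Among cells of the top quartile it ranged from 38.1% to 46.5%, so cluster 11 was found at all depths. Of cluster 11 cells pooled over libraries 28.1% had fewer than 4249 reads, the median of all marmoset cells, as had 20.7% of newborn cluster 12 cells. By library, cluster 11 had 39.6%, 38.2%, 21.6%, 20.4% and 21.5% of such cells in libraries 1 to 5. Cluster 12 had 20.7%, 30.3%, 22.0%, 13.6% and 19.3%, so the order was reversed in library 3. Whether depth played a part in the division of Vip cells into clusters was not tested.

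**Figure D2:**
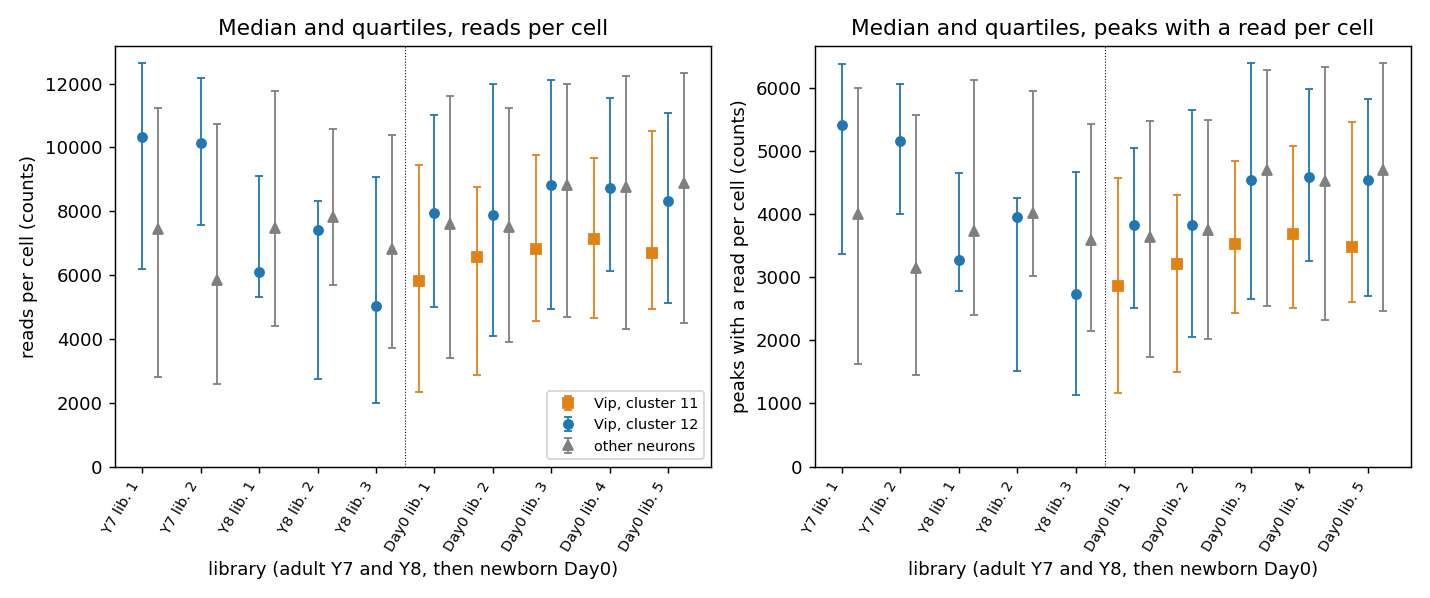
Reads per cell (left) and peaks with a read per cell (right) by library, adults left of newborns, as medians with lower and upper quartiles over cells. Squares are Vip cells of cluster 11, circles Vip cells of cluster 12 and triangles all other neurons; squares lie below circles in each newborn library, and Y7 circles lie above Y8 circles.

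Relative to all other neurons of the same newborn library, the median reads of Vip cells were lower in 5 of 5 libraries. Medians of Vip cells were 7085, 6622, 7129.5, 7491.5 and 7436 reads in libraries 1 to 5, against 7589, 7519, 8832, 8749 and 8878 in other neurons. The mean ratio was 0.862-fold (-0.21 ± 0.079 on the log2 scale, SD, n = 5), and that of peaks 0.867-fold. Neither could pass, since the smallest p that 5 libraries allow is 0.0625 (adjusted p = 0.0804 each, two-sided exact sign-flip permutation test, 9 within-library tests). With the mean of log2 values over cells in place of the median, the differences shrank to -0.041 ± 0.067 for reads and -0.058 ± 0.067 for peaks (SD, n = 5), lower in 4 of 5 libraries (adjusted p = 0.321 and 0.188, exact sign-flip permutation test). Cluster 11 medians lay at 0.794-fold the reads of other neurons, lower in 5 of 5, whereas newborn cells of cluster 12 lay at 1.00-fold, within 0.936 to 1.05. By medians, newborn Vip cells thus lay below other neurons in cluster 11, and on both sides of them in cluster 12.

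Against single interneuron names, newborn Vip cells had 0.813-fold the reads of Sst cells and 0.911-fold those of parvalbumin cells, the fast-spiking inhibitory neurons, lower in 5 of 5 libraries in each case. They had 1.15-fold the reads of cells named for neuropeptide Y, higher in 5 of 5. Newborn Vip cells of cluster 12 reached 0.948-fold the reads of Sst cells, with libraries from 0.814 to 1.08. These ratios to single names are descriptions.

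In adults, Vip cells of the Y7 and Y8 libraries stood on opposite sides of the other neurons. Median reads of Vip cells were 10335 and 10125 in the Y7 libraries, against 7443 and 5829 in other neurons. They were 6092, 7420 and 5036.5 in the Y8 libraries, against 7485, 7822.5 and 6826 in other neurons. The ratios were 1.39 and 1.74 at Y7 and 0.814, 0.949 and 0.738 at Y8, with a mean over the 5 adult libraries of 1.07-fold (0.09 ± 0.53 on the log2 scale, SD; adjusted p = 0.75, exact sign-flip permutation test, n = 5). Peaks gave 1.08-fold (adjusted p = 0.703 in the same exact test). The mean stood for no single library, and it turned to -0.0038 on the log2 scale without Y7 library 1 and to -0.085 without Y7 library 2.

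The neurons set beside Vip cells also differed between Y7 and Y8. Pyramidal neurons had medians of 6015 and 4873 reads in Y7 libraries and of 9589, 10069 and 7704.5 in Y8 libraries, the reverse order of Vip cells. Relative to Sst cells alone, Vip cells had 1.17 and 1.53 times the reads at Y7 and between 0.845 and 1.20 times at Y8. The Y8 medians rest on 13, 13 and 14 Vip cells, with quartiles of 1979.75 and 9081.75 reads in Y8 library 3. Age label, library and depth cannot be told apart between Y7 and Y8.

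**Figure D3:**
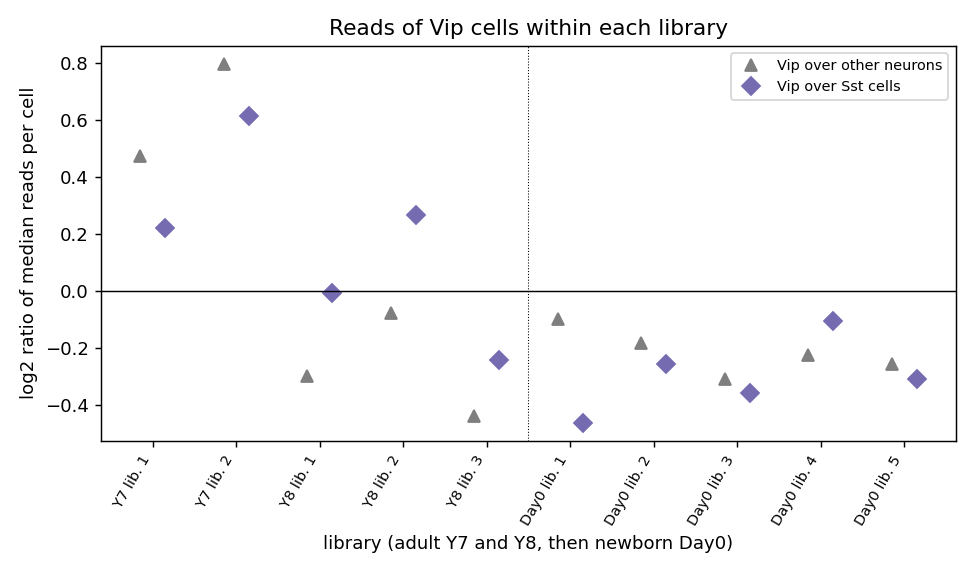
Log2 ratio of the median reads of Vip cells to those of other neurons (triangles) and of Sst cells (diamonds) within each library (x axis, adults left of newborns); 0 marks equal medians. Triangles lie above 0 in the 2 Y7 libraries and below 0 in the 3 Y8 and 5 newborn libraries.

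The contrast of Vip cells with other neurons was not shown to differ between ages. It was 0.09 ± 0.53 in adults and -0.21 ± 0.079 in newborns for log2 reads (difference 0.31, adjusted p = 0.325, exact permutation test, n = 5 each, 2 tests). For log2 peaks it was 0.11 ± 0.46 in adults and -0.21 ± 0.089 in newborns (difference 0.31, adjusted p = 0.325 in the same exact permutation test). Adult ratios were far more spread than newborn ones, with Y7 and Y8 libraries on opposite sides of 0.

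Within cluster 12, the Vip cluster seen at both ages, no difference in depth between adult and newborn Vip cells passed the test. Adult medians of 10335, 10125, 6092, 7420 and 5036.5 reads stood on both sides of the newborn range of 7890.5 to 8814. The mean difference was -0.15 on the log2 scale, or 0.901-fold (adjusted p = 0.635, exact permutation test, n = 5 each, 3 age tests). Median peaks were 5412 and 5160 at Y7 and 3266, 3943 and 2732.5 at Y8, against 3818 to 4577.5 in newborns (0.935-fold, adjusted p = 0.635 in the same exact permutation test). Both Y7 libraries lay above all newborn libraries in reads and peaks. All 3 Y8 libraries lay below them in reads, and 2 of 3 in peaks, with Y8 library 2 inside the newborn range. In Y7 libraries alone the difference was 0.30 for reads and 0.32 for peaks, where the smallest p that 2 against 5 libraries allow is 0.0952.

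Vip cells had close to 1 peak with a read for every 2 reads in each library. Adult libraries had medians of 51.3 to 52.4 peaks per 100 reads. Newborn libraries 1 and 2 had 48.1 and 49.6, and libraries 3 to 5 had 52.5, 52.1 and 52.5. At equal reads, adult cells of cluster 12 had 1.02-fold the peaks of newborn cells (adjusted p = 0.635, exact permutation test, n = 5 each), a log2 difference of 0.033. It was 0.10 against newborn libraries 1 and 2 alone and -0.012 against newborn libraries 3 to 5 alone, so its sign followed the newborn libraries used. Within libraries and at equal reads, Vip cells had 0.984-fold the peaks of other neurons in adults and 0.986-fold in newborns, lower in 5 of 5 libraries at each age (adjusted p = 0.0804 each, exact sign-flip permutation test). Against other interneurons only, the sign turned, with log2 differences of 0.0054 in adults and 0.011 in newborns.

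Vip cells were not spread evenly over the depth of newborn neurons. Over quartiles of reads among the neurons of each library, from lowest to highest, Vip cells were 14.1% ± 2.61, 20.4% ± 2.99, 15.0% ± 1.79 and 10.8% ± 1.58 of neurons (SD, n = 5). Cluster 11 followed this course at 8.73%, 12.3%, 7.26% and 4.48%. Cluster 12 stayed flatter on average, at 5.36%, 8.12%, 7.74% and 6.35%. Other interneurons were also most frequent in quartile 2, at 38.1%, so the peak was not a property of Vip cells alone.

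**Figure D4:**
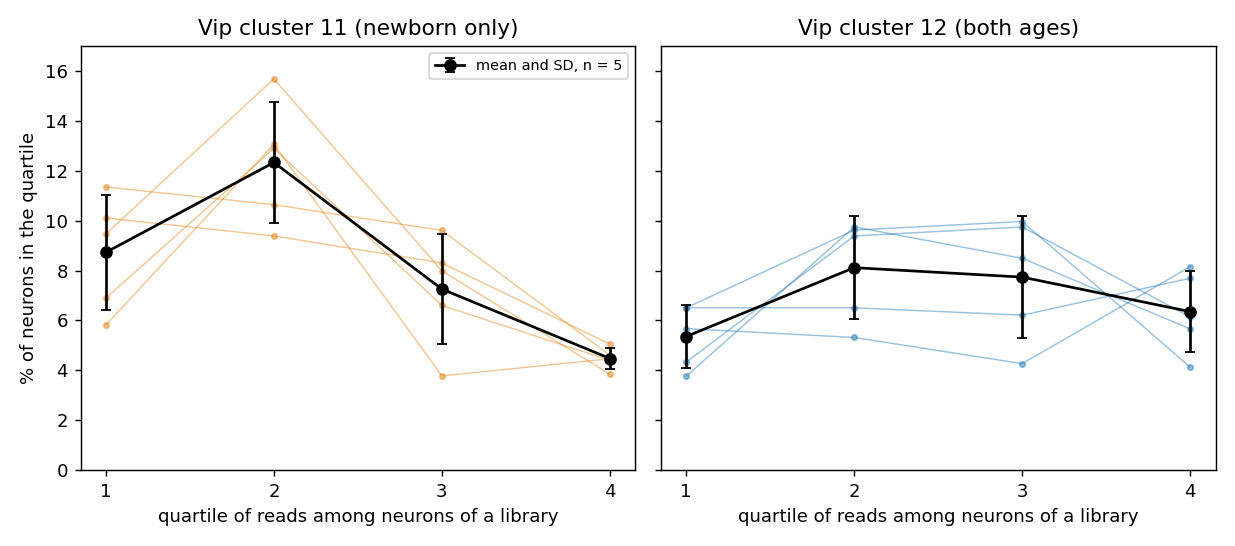
Share of newborn neurons that were Vip cells of cluster 11 (left) or cluster 12 (right), in percent, over 4 quartiles of reads per cell within a library. Thin lines are the 5 newborn libraries and black points their mean with SD. The mean of cluster 11 drops to 4.48% in the top quartile, and that of cluster 12 stays between 5.36% and 8.12%. Single libraries of cluster 12 run from 3.76% to 9.97%.

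Adult quartiles held few Vip cells. In Y7 library 1 Vip cells were 4.21%, 7.45%, 13.8% and 13.7% of neurons from the lowest to the highest quartile of reads, and in Y7 library 2 they were 7.58%, 3.08%, 24.6% and 21.5%. Both libraries had more Vip cells in the 2 upper quartiles. The 12 quartiles of the Y8 libraries held 1 to 6 Vip cells each, too few to describe a course.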

How the data were processed

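The deposited tables gave, for each cell, 2 values in units of counts, the reads and the peaks with a read, without normalization by the authors. Per the study's methods, the authors aligned reads to the marmoset genome with Bowtie2, removed duplicates with Picard, sampled libraries to a similar depth per cell, and called peaks with MACS2 within Scasat. They set limits on reads and peaks per cell, and clustered binarised, weighted peak counts. Clusters were divided by time point and small divisions dropped. The submitters' processing notes name MACS2 and the build mm10. The sources used here do not state how doublets were treated. How far the depth sampling and the limits affected differences in reads was not tested.

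Cells were grouped by the deposited annotation, library and cluster. Libraries were the replicates and weighed equally. Shares and log2 medians were compared between ages by two-sided exact permutation tests, and within libraries by exact sign-flip permutation tests, with Benjamini-Hochberg adjustment within families of 4 (shares), 3 (age), 9 (within library) and 2 (contrast between ages) tests, and a threshold of 0.05. The family of 9 included 3 cluster contrasts that are given as descriptions. Peaks at equal reads were residuals from a line of log2 peaks on log2 reads over other neurons. Libraries needed at least 5 cells. Intervals are Wilson 95% on counts of cells and cover counting error only, since they leave out the spread between libraries. Alternatives left out each library, used a replicate block, Y7 or Y8 alone, the mean of log2 values over cells, other cell limits and denominators, and averaged agreeing libraries. Newborn libraries 3 and 4 had the same makeup of cell types within sampling noise, as had Y8 library 3 and each of Y8 libraries 1 and 2. They differed in number of cells and are counted singly here and averaged as an alternative. The permutation tests were tested on simulated data. No gene is named with a value, since the rule for named genes allowed none without gene-level counts. Members, lists and comparisons were chosen with earlier results of these data known. The mouse table was used only to count cells. Python 3.11.15, pandas 2.3.3, numpy 2.4.6, scipy 1.17.1 and matplotlib 3.10.9 were used.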

Additional observations from a re-analysis of the deposited data

Results flagged for a closer look

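The contrast of Vip cells with other neurons of the same library went opposite ways in the Y7 and Y8 libraries. For median reads it averaged 0.64 on the log2 scale at Y7, above 0 in 2 of 2 libraries, and -0.27 at Y8, below 0 in 3 of 3. For median peaks the means were 0.58 at Y7 and -0.20 at Y8, again with each library on its group's side. The difference was not tested, since 2 against 3 libraries cannot give a p below 0.2. None of 23 groups of libraries checked held a value far from the others by Dixon's criterion.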

How the results depend on the processing

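Of 110 alternatives other than leaving out a library, 77 kept the direction and the side of the threshold, as did 130 of 135 that left out 1 library. The differences in the Vip share of Vip and Sst cells, the Vip share of all cells and the cluster 12 share of neurons lost their call where few libraries remained or could be permuted. They were -29.0, -9.52 and 7.87 points with a replicate block (unadjusted p = 0.111, exact permutation test). They were -27.4, -8.13 and 5.09 in Y7 libraries alone, -27.7, -8.97 and 7.52 against newborn libraries 1 and 2 alone, and -27.6, -8.60 and 6.28 with agreeing libraries averaged. The smallest possible p exceeded 0.05 in each of these. With all interneuron names counted, the Vip share of Vip and Sst cells became a share of interneurons and its difference, -4.28 points, did not pass. Whether equal replicate numbers pair the libraries could not be decided. Over 8 cell types, the correlations of deviations from the age mean ran from -0.034 to 0.29 between newborn and adult libraries. Between Y7 and Y8 libraries they were -0.70 and -0.82. With only 2 Y7 libraries, their deviations are mirror images of each other, which constrains these values. With the 5 neuron names used at both ages, the Vip share of neurons gained a call (-17.2) and that of cluster 12 turned to -0.25. With 1 library left out, the 3 differences named first ranged from -30.2 to -26.5, from -9.59 to -8.94 and from 6.34 to 8.35 and passed each time.

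Values that did not pass turned sign more often. The Vip share of neurons was 0.50 points in Y8 libraries alone, and ranged from -1.85 to 0.15 (without Y7 library 1) with 1 library left out. The log2 age difference of cluster 12 in reads and peaks was 0.30 and 0.32 in Y7 libraries alone, 0.067 and 0.11 with agreeing libraries averaged, 0.071 and 0.11 with newborn cells of both clusters, and 0.12 and 0.11 with cells pooled; in peaks it was 0.054 against newborn libraries 1 and 2 alone and ranged from -0.21 to 0.037 (without Y8 library 3). At equal reads it was 0.10 against newborn libraries 1 and 2, -0.012 against newborn libraries 3 to 5 and 0.066 with the replicate block. The adult contrast with other neurons in reads and peaks was -0.27 and -0.20 in Y8 libraries alone and -0.075 and -0.097 among cells at or above the median of reads. It ranged from -0.085 to 0.22 in reads and from -0.042 to 0.23 in peaks with 1 library left out, and was below 0 in reads without either Y7 library (-0.0038 without Y7 library 1). Its reads difference between ages was -0.056 in Y8 libraries alone. With the mean of log2 values over cells, the newborn contrast was -0.041 in reads and -0.058 in peaks. At equal reads the contrast was 0.0054 in adults and 0.011 in newborns against other interneurons only. The cause of these changes was not tested. Small adult counts, 13 or 14 Vip cells in each Y8 library, limit these medians.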
